A study of Homo sapiens with 24 samples.

Results

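Under IL-4, THP-1 macrophages with CES1 knocked down were set against control macrophages of the same line, 4 libraries against 4, out of 24 libraries in the series. THP-1 is a human monocytic leukaemia line. Both groups were grown in 10% fetal bovine serum, turned into macrophages by phorbol ester (PMA) at 20 nM for 72 hours, and then given IL-4 at 100 ng/ml (the M2 state). They differed in genotype: CES1KD cells stably express a hairpin RNA against CES1 from a lentivirus, and WT cells served as the control. The sources used here do not say if WT cells hold a control vector, if the CES1KD line is a clone or a pool, or how long IL-4 was given, so a vector or line effect cannot be told apart from CES1 loss. The labels do not say that the 4 libraries of a group are separate cultures, so the p-values reflect sample-to-sample spread that may be technical. FPKM here is the number of fragments on a gene divided by its length and scaled by the size of the library. Genes that reached 1 FPKM in 4 or more of the 8 libraries were tested, 11740 of the 58735 in the table, of which 10318 are protein-coding.

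CES1 (carboxylesterase 1) sits in the lumen of the endoplasmic reticulum, where it hydrolyses ester bonds in lipids and in many drugs. IL-4 signals through its receptor, JAK kinases and STAT6, and in human macrophages it is known to induce genes such as ALOX15, CCL13, CD209, FCER1A and F13A1, a state often called alternative activation. Interferon-stimulated genes answer to another pathway, in which a complex with IRF9 binds an interferon-stimulated response element in target promoters. The series asks what CES1 does in macrophages of different activation states.

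The 8 libraries held 15529869 to 26671681 fragments on genes. Mitochondrial genes took 1.21 to 1.55% of the fragments in CES1KD libraries and 1.91 to 2.8% in WT libraries. Library 2 of the CES1KD group stood apart. On the log2(FPKM + 1) scale it correlated at r = 0.946 to 0.954 with the other CES1KD libraries, which correlated at 0.992 to 0.993 among themselves, and WT pairs lay at 0.982 to 0.99. The difference followed base composition: relative to the mean of the other 3 CES1KD libraries, its median gene was 0.323 higher (log2) in the lowest of 5 equal GC classes and 0.556 lower in the highest. By gene length, its median gene was 0.239 lower in the shortest of 5 classes and 0.252 higher in the longest. Its rank correlation with transcript GC across 11737 genes was -0.689, a description in which all genes share 1 library. WT library 2 leaned the same way by less (-0.569), and WT libraries 1, 3 and 4 had 0.506, -0.165 and 0.3. The other 3 CES1KD libraries, each set against a mean that includes library 2, had 0.525 to 0.599. Without CES1KD library 2, the median difference between the groups ran from -0.0781 to 0.136 over the GC classes, against -0.0221 to 0.0126 with it. Counts over gene lists are therefore given with and without CES1KD library 2, and its part in a result beyond that was not tested.

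**Figure D1:**
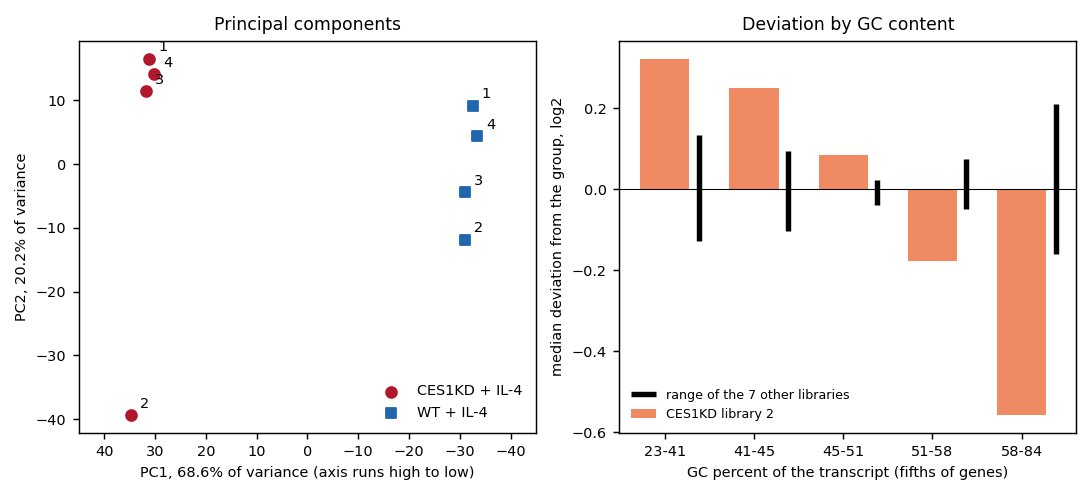
Left, the first and second principal components of log2(FPKM + 1) over 11740 genes, with the library number beside each point: the first (68.6% of the variance) separates CES1KD (red circles) from WT (blue squares), and the second (20.2%) sets CES1KD library 2 at -39.3, away from 11.5 to 16.6 for the other 3. Right, the median deviation of CES1KD library 2 from the mean of the other 3 libraries of its group, by 5 classes of transcript GC content (bars, log2), runs between 0.323 and -0.556, outside the range of the same medians in the 7 other libraries (black lines).

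CES1 itself (chromosome 16, 55802851 to 55833337, minus strand, GRCh38) was nearly absent from the knockdown cells. It had 0.0368, 0.124, 0.0409 and 0 FPKM in CES1KD libraries, against 5.73, 6.02, 7.13 and 6.42 FPKM in WT libraries. The groups lay far apart, and 1 CES1KD library had no fragment, which allows up to 0.0598 FPKM (3 fragments). In fragments, CES1KD libraries held 12 in all and WT libraries 1394, so 0.742% was left after scaling (95% exact interval 0.383 to 1.3, counting error only). The log2 difference was -2.80 (SE 0.08), with limma adjusted p = 6.9e-08. Permuting the 4 and 4 libraries exactly, two-sided, gave p = 0.0286, the smallest value that this design allows.

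The CES1KD and WT lines differed across much of the transcriptome. With limma on log2(FPKM + 1) and Benjamini-Hochberg adjustment over all 11740 genes, 5188 genes (44.2%) passed adjusted p under 0.05, of which 2522 (21.5%) were higher in CES1KD cells and 2666 (22.7%) lower. Of these, 888 genes (7.56%) differed at least 2-fold, 492 (4.19%) higher and 396 (3.37%) lower. The libraries of the groups did not overlap for 5175 genes (44.1%). Without CES1KD library 2, 6849 genes (58.3%) passed, 5150 of them among the 5188 and in the same direction. The 2-fold count was then 935 (7.96%), of which 824 were shared. The median difference of all genes was -0.01. Genes named below as higher or lower passed this limma test, and differences are on the log2(FPKM + 1) scale, CES1KD minus WT. With so large a share of genes past the test, a list with about 44.2% of its members called is at the background.

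**Figure D2:**
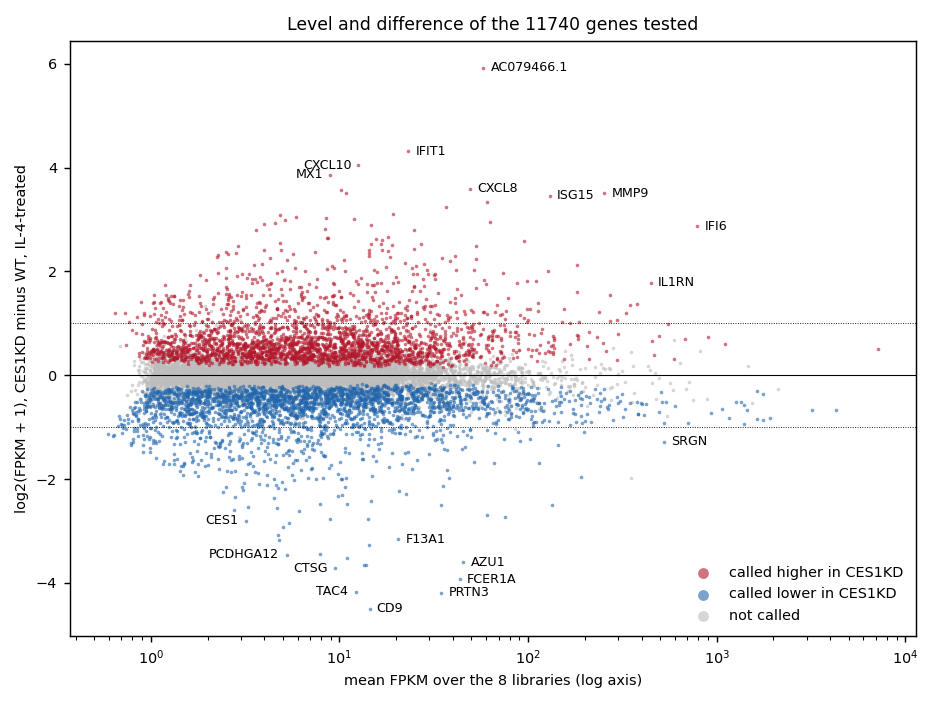
Difference in log2(FPKM + 1), CES1KD minus WT, against the mean FPKM of each of the 11740 genes over the 8 libraries (log axis), red for genes called higher in CES1KD cells, blue for genes called lower and grey for the rest. Dotted lines mark 2-fold. Interferon-stimulated genes and the lincRNA AC079466.1 lie at the top, and CD9, granule proteases and FCER1A at the bottom.

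Genes of the type I interferon response stood at the top of the ranking. Of the 32 on the list, 30 were tested and all of these were higher in CES1KD cells, by a median of 2.59, where the median of all genes was -0.01 and 21.5% of genes were called higher. The count was the same without library 2. The remaining ISG20 and IFI27 did not reach the filter, with up to 1.83 and 2.48 FPKM in CES1KD cells and up to 0.163 and 0.128 FPKM in WT cells. The 30 had no member in the chromosome windows described further on.

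Several promoters of interferon-stimulated genes hold the core of an interferon-stimulated response element. Shown are 4 of them (CXCL10 from the interferon gamma list) with 2 promoters of genes that were lower, so that both kinds can be compared. Each is the 250 bases before the RefSeq start on GRCh38.p14, in lower case, with capitals for the motif of GAAA, any 2 bases and GAAA (either strand, so also TTTC, any 2 bases and TTTC; overlapping matches counted) and, in CCL13, for TTC, any 3 bases and GAA. 
IFIT1 (chr10:89392373-89392622, plus strand): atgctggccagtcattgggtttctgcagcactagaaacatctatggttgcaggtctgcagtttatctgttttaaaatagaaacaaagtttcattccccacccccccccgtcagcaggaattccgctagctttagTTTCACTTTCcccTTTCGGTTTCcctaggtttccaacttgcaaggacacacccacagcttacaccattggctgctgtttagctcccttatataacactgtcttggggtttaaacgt
CXCL10 (chr4:76023498-76023747, minus strand): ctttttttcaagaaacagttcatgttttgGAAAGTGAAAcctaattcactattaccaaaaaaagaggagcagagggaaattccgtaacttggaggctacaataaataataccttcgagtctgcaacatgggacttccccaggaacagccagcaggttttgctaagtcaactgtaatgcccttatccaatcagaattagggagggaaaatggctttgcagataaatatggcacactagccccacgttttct
ISG15 (chr1:1013247-1013496, plus strand): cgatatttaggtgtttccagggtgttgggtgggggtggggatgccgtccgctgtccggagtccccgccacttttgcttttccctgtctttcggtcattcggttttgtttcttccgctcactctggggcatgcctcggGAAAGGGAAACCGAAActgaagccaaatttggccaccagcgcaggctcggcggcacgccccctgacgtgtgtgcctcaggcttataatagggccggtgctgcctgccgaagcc
RSAD2 (chr2:6877527-6877776, plus strand): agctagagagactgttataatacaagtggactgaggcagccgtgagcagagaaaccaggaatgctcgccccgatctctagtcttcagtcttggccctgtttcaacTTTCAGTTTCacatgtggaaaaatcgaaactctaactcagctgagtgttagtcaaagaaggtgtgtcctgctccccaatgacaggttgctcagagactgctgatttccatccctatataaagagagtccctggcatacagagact
FCER1A (chr1:159302086-159302335, plus strand): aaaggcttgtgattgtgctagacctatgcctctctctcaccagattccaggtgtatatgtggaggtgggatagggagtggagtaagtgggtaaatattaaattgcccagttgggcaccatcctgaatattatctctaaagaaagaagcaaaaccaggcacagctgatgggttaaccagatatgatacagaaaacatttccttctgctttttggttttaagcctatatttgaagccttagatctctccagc
CCL13 (chr17:34356230-34356479, plus strand): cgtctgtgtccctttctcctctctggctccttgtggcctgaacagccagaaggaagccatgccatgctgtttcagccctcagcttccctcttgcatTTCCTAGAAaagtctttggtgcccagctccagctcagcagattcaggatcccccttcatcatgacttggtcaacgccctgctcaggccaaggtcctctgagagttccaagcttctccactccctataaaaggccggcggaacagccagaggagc
IFIT1 and ISG15 have the motif at 2 places, CXCL10 and RSAD2 at 1, and the windows of FCER1A and CCL13 hold no match of it. RSAD2 has 2 promoters among those searched, and the 1 with a match is shown. In the table of 35116 promoters, windows of 300 bases (250 before the start and 50 after), 3.02% hold the GAAA motif. The share was 57.6% (19 of 33) in the interferon list, 8.27% among genes at least 2-fold higher in CES1KD cells and 2.63% among genes at least 2-fold lower. These are counts of promoters, and a gene can have more than 1 or none in the table. The 33 came from 24 of the 30 interferon genes, and 17 of these genes held the motif. Of the 15 protein-coding genes that were highest, 10 had promoters there: 10 of 15 promoters held it, in 8 genes. Of the 15 lowest, 12 had promoters there, and 0 of 16 held it. TTC and GAA with 3 bases between them are in 6.57% of all promoters, and with 4 between them, the spacing known for STAT6, in 5.38%. Of 16 promoters of the IL-4-induced genes that were lower (from 12 of 14 genes), 1 held the 3-base and 2 the 4-base spacing. Of the 11727 symbols tested 8504 had a promoter in the table. The sets overlap, so their shares are not separate results: 29 of the 30 interferon genes tested are among the genes at least 2-fold higher. The 15 highest also share members with the interferon list, among them IFIT1, MX1, RSAD2 and IFIT2. A match is only a run of letters, and these shares carry no test.

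IFIT1, which binds viral RNA that lacks a cellular cap, had 49, 38.8, 49.3 and 43.6 FPKM in CES1KD libraries, against 0.886, 1.47, 1.46 and 1.46 FPKM in WT libraries. MX1, a GTPase that traps viral particles, had 18.3, 16.5, 18.8 and 16.8 FPKM in CES1KD libraries, against 0.307, 0.273, 0.316 and 0.218 FPKM in WT libraries. RSAD2 (viperin), which makes a chain-terminating nucleotide, had 21.2, 18.8, 21.3 and 17.2 FPKM in CES1KD libraries, against 0.721, 0.724, 0.885 and 0.656 FPKM in WT libraries. In each of the 3 genes every CES1KD library was above every WT library, with log2 differences of 4.32 (SE 0.12), 3.86 (SE 0.07) and 3.56 (SE 0.09) and limma adjusted p of 5.08e-08, 9.09e-09 and 3.43e-08. ISG15, a ubiquitin-like modifier, had 301, 119, 277 and 265 FPKM in CES1KD libraries, against 19.9, 19.4, 18.1 and 21.7 FPKM in WT libraries. Its CES1KD library 2 was less than the other 3 but still above all WT libraries, and the log2 difference of 3.46 was 3.76 without it. IFI6, an inhibitor of apoptosis and one of the 8 most abundant genes with at least a 2-fold change, had 1552, 1028, 1430.1 and 1543 FPKM in CES1KD libraries, against 169, 219.7, 174 and 186 FPKM in WT libraries (log2 difference 2.87, SE 0.15). OAS2 and OASL, of the oligoadenylate synthetase family, differed by 3.25 and 3.05, IFIT2, IFIT3 and IFIT5 by 3.02, 3.34 and 2.82, and EPSTI1 and IFI44 by 3.03 and 3.11. SIGLEC1 (CD169), a macrophage lectin for sialic acids that is itself induced by interferon, averaged 20.9 ± 4.12 FPKM in CES1KD cells and 0.897 ± 0.239 FPKM in WT cells (SD, n = 4 each).

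**Figure D3:**
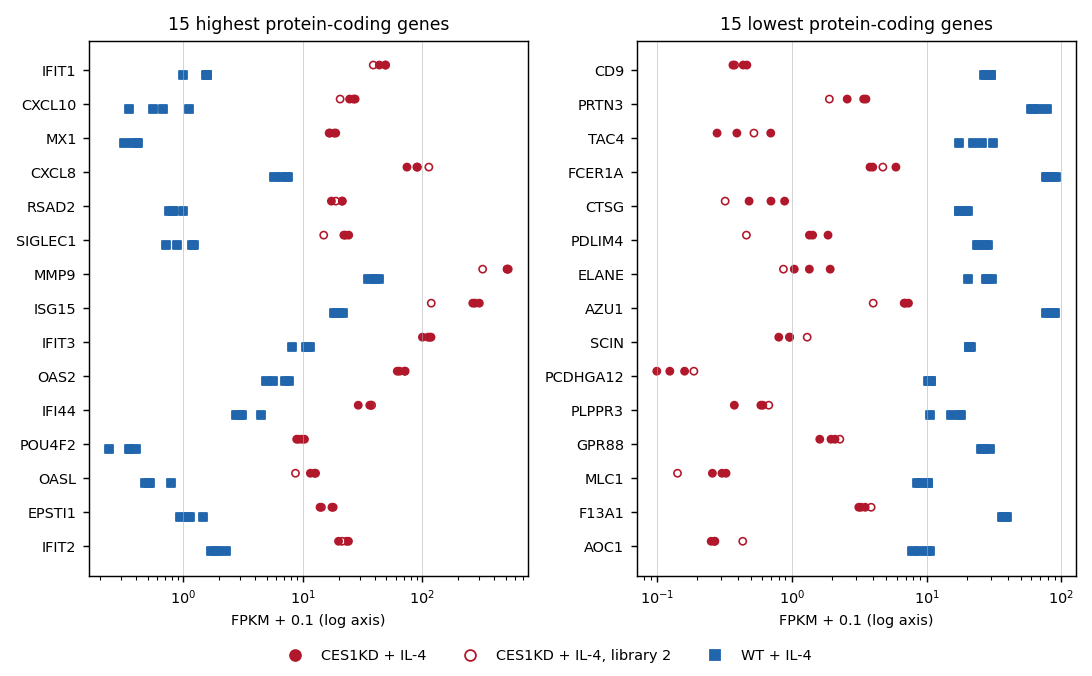
FPKM + 0.1 (log axis) in each library for the 15 protein-coding genes with the largest rise (left) and the largest fall (right) in CES1KD cells under the naming rule, red circles for CES1KD, open for its library 2, and blue squares for WT. In every gene shown the 4 CES1KD points are apart from the 4 WT points, and library 2 stands off from the other CES1KD libraries in ISG15, MMP9, SIGLEC1 and AZU1.

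Sensors and transducers of interferon signalling were mostly higher, and the interferon genes IFNB1 and IFNL1 were close to 0. IFNB1 was below the filter, with 0.168, 0, 0.0932 and 0.0682 FPKM in CES1KD libraries, against 0 FPKM in all 4 WT libraries, and IFNL1 was above 0 in 1 WT library alone. Of 21 signalling and sensor genes tested, 12 were higher and 4 lower (median 0.67; 13 and 4 without library 2). DDX58 (RIG-I), a sensor of viral RNA, had 27.2, 33.1, 31.6 and 24.5 FPKM in CES1KD libraries, against 3.67, 4.61, 4.53 and 3.93 FPKM in WT libraries (log2 difference 2.53, SE 0.11), and IFIH1 (MDA5) differed by 1.78. AIM2 and IFI16, sensors of DNA, differed by 2.07 and 1.96, and both lie in a chromosome window that was raised as a whole. TMEM173 (STING), the adaptor of the cytosolic DNA pathway, went the other way, with 4.13, 2.89, 4.44 and 4.56 FPKM in CES1KD libraries, against 26.5, 22.5, 25 and 28.2 FPKM in WT libraries and a log2 difference of -2.42 (SE 0.12). It lies in a window that was lowered as a whole.

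Among interferon gamma and MHC class I genes, 13 of 21 tested were higher and 2 lower (median 0.79; 16 and 2 without library 2). B2M, the light chain of MHC class I, had 553, 534, 519.6 and 575 FPKM in CES1KD libraries, against 196, 229, 194 and 219 FPKM in WT libraries (log2 difference 1.38, SE 0.08). TAP1, a subunit of the peptide transporter, differed by 1.25 and GBP1, a guanylate-binding GTPase, by 1.10. The chemokines CXCL10 and CXCL11, which attract T cells through CXCR3, were both higher. CXCL10 had 27.3, 20.4, 26.5 and 24.5 FPKM in CES1KD libraries, against 0.46, 1.02, 0.569 and 0.25 FPKM in WT libraries (log2 difference 4.04, SE 0.15), and CXCL11 4.4, 4.91, 4.18 and 3.99 FPKM in CES1KD libraries, against 0, 0.258, 0.0701 and 0.123 FPKM in WT libraries (log2 difference 2.27, SE 0.10). MHC class II was little expressed in either line: 9 of 12 genes were below the filter, and of the other 3, 1 was higher and 2 lower (the same without library 2). CD74, the invariant chain, encoded in a lowered window of chromosome 5, averaged 20.7 ± 1.87 FPKM in CES1KD cells and 17 ± 1.34 FPKM in WT cells, a log2 difference of 0.27 (SE 0.09) that lost its call without several single libraries. HLA-DRB1 averaged 3.48 ± 0.597 FPKM in CES1KD cells and 9.06 ± 0.843 FPKM in WT cells, lower in CES1KD cells by 1.17 on the log2 scale, and HLA-DRB5, a close copy with which reads can be shared, fell by 1.33.

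The genes that IL-4 is known to induce did not move as a block. Of 39 on the list, 26 were tested, of which 14 were lower and 8 higher in CES1KD cells, with a median of -0.36 (14 and 9 without library 2; background 22.7% lower and 21.5% higher). The other 13 were below the filter. Among them, CCL17, CCL18, CCL24, CLEC10A and CD200R1 stayed below 1 FPKM in all 8 libraries. MRC1 reached 0.866 FPKM in CES1KD libraries and 1.16 FPKM in WT libraries, and STAB1 0.437 FPKM in CES1KD libraries and 0.187 FPKM in WT libraries. FCER1A, the alpha chain of the high-affinity IgE receptor, had 3.89, 4.65, 3.71 and 5.83 FPKM in CES1KD libraries, against 77.6, 90.7, 76.3 and 85 FPKM in WT libraries (log2 difference -3.93, SE 0.12). F13A1, the A subunit of coagulation factor XIII, had 3.16, 3.79, 3.05 and 3.41 FPKM in CES1KD libraries, against 38.6, 37, 36 and 39.3 FPKM in WT libraries (log2 difference -3.16, SE 0.07). ALOX15, the lipoxygenase that oxidises arachidonic and linoleic acid, had 7.12, 6.9, 7.63 and 6.88 FPKM in CES1KD libraries, against 22.7, 22.7, 23.5 and 23.1 FPKM in WT libraries (log2 difference -1.56, SE 0.06). All 3 genes were separated in every library, and their adjusted p was 7.88e-08, 2.89e-08 and 2.11e-07. The chemokine CCL13 had 0, 0, 0.188 and 0.482 FPKM in CES1KD libraries, against 3.74, 2.06, 1.62 and 2.97 FPKM in WT libraries, a log2 difference of -1.61 (SE 0.20) with adjusted p = 0.000217. The CD1 molecules, which present lipids to T cells, were lower as well, CD1B by 1.32 and CD1E by 0.99 on the log2 scale, although their window on chromosome 1 was raised as a whole.

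Other IL-4-induced genes were higher. RAMP1, a partner of the calcitonin receptor-like receptor, had the largest rise on the list, with 26.9, 5.91, 23.1 and 30.7 FPKM in CES1KD libraries, against 5.16, 2.84, 4.77 and 5 FPKM in WT libraries (log2 difference 1.87, SE 0.44), and library 2 was the lowest of the CES1KD libraries. IL1RN, the antagonist of the IL-1 receptor and one of the most abundant genes with a 2-fold change, had 682, 702, 682 and 712 FPKM in CES1KD libraries, against 198, 216, 193 and 201 FPKM in WT libraries (log2 difference 1.78, SE 0.06). TGFBI, a matrix protein encoded in a lowered window of chromosome 5, averaged 58.7 ± 4.81 FPKM in CES1KD cells and 24.7 ± 1.32 FPKM in WT cells. PPARG, the nuclear receptor that IL-4 induces in macrophages, averaged 24.1 ± 0.769 FPKM in CES1KD cells and 16.9 ± 1.07 FPKM in WT cells, a log2 difference of 0.49 (SE 0.07). CD209 (DC-SIGN), a lectin that binds pathogens, was lower instead. CD209 averaged 132 ± 11.5 FPKM in CES1KD cells and 165 ± 11.3 FPKM in WT cells, a log2 difference of -0.32 (SE 0.08). EGR2, a transcription factor that IL-4 induces, averaged 170.1 ± 29.1 FPKM in CES1KD cells and 99.8 ± 6.14 FPKM in WT cells, and CCL22, a ligand of CCR4, 24.1 ± 1.05 FPKM in CES1KD cells and 20.2 ± 0.648 FPKM in WT cells. CISH, a feedback inhibitor of cytokine signalling, averaged 15.5 ± 2.94 FPKM in CES1KD cells and 17.6 ± 0.487 FPKM in WT cells (adjusted p = 0.26), and TGM2, a transglutaminase, 155 ± 19.8 FPKM in CES1KD cells and 178 ± 8.52 FPKM in WT cells (adjusted p = 0.131), and neither passed the test. RAMP1, CD209, EGR2, CCL22, CISH, TGM2 and CCL13 were outside the naming rule and are given because the comparison is under IL-4.

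**Figure D4:**
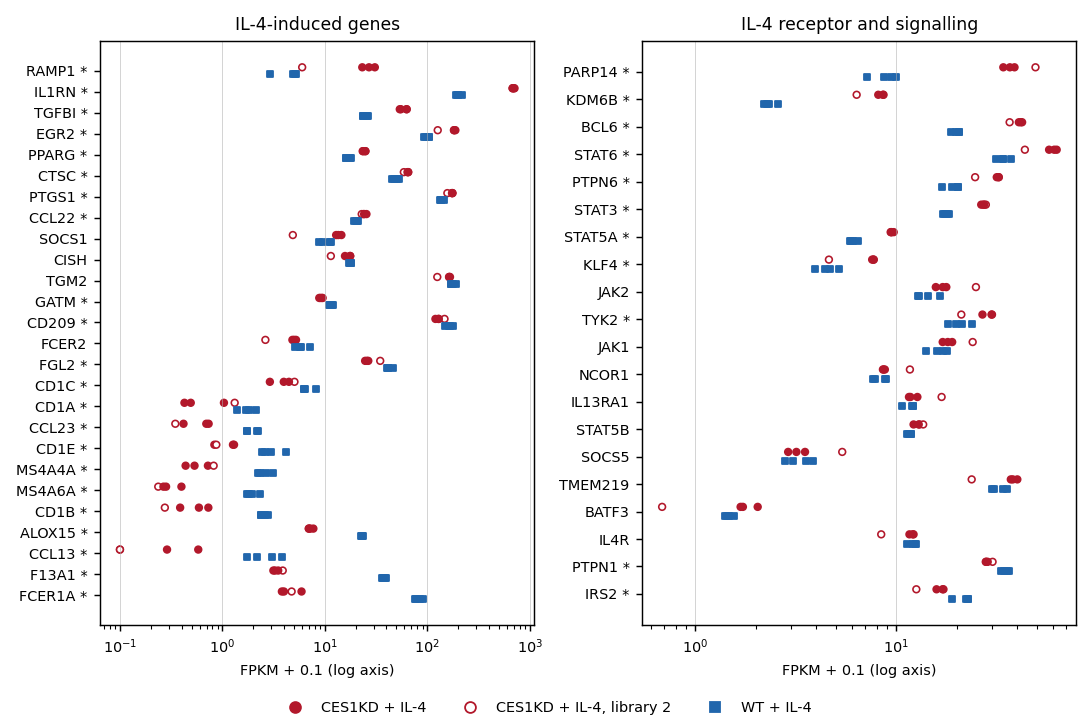
FPKM + 0.1 (log axis) in each library for the tested IL-4-induced genes (left, 26 genes) and genes of the IL-4 receptor and its signalling (right, 20 genes), ordered by log2 difference, red circles for CES1KD, open for its library 2, and blue squares for WT; an asterisk marks adjusted p under 0.05. FCER1A and F13A1 stand at the bottom left and RAMP1, IL1RN and TGFBI at the top, with RAMP1 in CES1KD library 2 far below the other 3, while the points of IL4R, IL13RA1 and JAK1 overlap between the groups.

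The receptor chains IL4R and IL13RA1 did not pass the test. IL4R had 12.1, 8.32, 12 and 11.5 FPKM in CES1KD libraries, against 12.4, 11.2, 12.1 and 12.3 FPKM in WT libraries, a log2 difference of -0.13 (SE 0.11) with adjusted p = 0.399, and IL13RA1 averaged 13.1 ± 2.45 FPKM in CES1KD cells and 11.6 ± 0.688 FPKM in WT cells (adjusted p = 0.34). STAT6, the transducer of IL-4, was higher, with 62.8, 43.6, 61 and 57.6 FPKM in CES1KD libraries, against 37.4, 31.4, 33.8 and 34 FPKM in WT libraries and a log2 difference of 0.69 (SE 0.12). Of the 20 genes of the receptor and its signalling tested, 9 were higher and 2 lower (median 0.30; 11 and 2 without library 2). The other 6 of the 26 on the list were below the filter. Among them, IL2RG reached 0.3 FPKM in CES1KD libraries and 0.323 FPKM in WT libraries, and JAK3 was at 0 in all 8. PARP14, a co-activator of STAT6 that interferon also induces, had 36.7, 49.2, 38.7 and 34 FPKM in CES1KD libraries, against 7.04, 9.88, 9.27 and 8.62 FPKM in WT libraries (log2 difference 2.06, SE 0.13). KDM6B, a histone demethylase, averaged 7.83 ± 1.08 FPKM in CES1KD cells and 2.25 ± 0.167 FPKM in WT cells, and BCL6, a repressor, 40.3 ± 2.54 FPKM in CES1KD cells and 19.8 ± 0.875 FPKM in WT cells. IL4R, IL13RA1, STAT6, IL2RG and JAK3 were named outside the rule, for the same reason as above.

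Inflammatory mediators were mostly higher in CES1KD cells. Of 19 cytokines and NF-kB targets tested, 14 were higher and 1 lower, with a median of 1.08 (15 and 1 without library 2). IL1B, the pro-inflammatory interleukin, had 42.8, 37.5, 48.9 and 46.5 FPKM in CES1KD libraries, against 12.6, 11.1, 10.4 and 11.3 FPKM in WT libraries (log2 difference 1.86, SE 0.10). TNFAIP3 (A20), an inhibitor of NF-kB signalling, had 47.9, 46.2, 47.6 and 47.8 FPKM in CES1KD libraries, against 13.2, 10.4, 11.6 and 11.1 FPKM in WT libraries (log2 difference 1.95, SE 0.08). CSF1, the growth factor of macrophages, had 70.4, 48.1, 66.9 and 72.9 FPKM in CES1KD libraries, against 14.2, 12.4, 12.8 and 12.7 FPKM in WT libraries (log2 difference 2.21, SE 0.13), and INHBA, the subunit of activin A, 9.54, 11.2, 9.25 and 10.1 FPKM in CES1KD libraries, against 1.48, 1.67, 1.68 and 1.72 FPKM in WT libraries (log2 difference 2.06, SE 0.08). In all 4 genes the groups did not overlap. TNF and IL1A were below the filter, at up to 1.89 and 1.36 FPKM in CES1KD cells and up to 0.359 and 0.515 FPKM in WT cells, and IL6 had no fragment in any of the 8 libraries. IL12A, also below the filter, went the other way, with 0.247, 0, 0.255 and 0.172 FPKM in CES1KD libraries, against 1.12, 1.31, 0.765 and 0.922 FPKM in WT libraries.

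Chemokines were called in both directions. All 13 tested were called, 8 higher and 5 lower, also without library 2. Among those higher, CXCL8, which attracts neutrophils, had 74.4, 114, 91 and 90.2 FPKM in CES1KD libraries, against 7.4, 7.22, 5.67 and 6.49 FPKM in WT libraries (log2 difference 3.59, SE 0.13). The inflammatory chemokines CCL3 and CCL4 averaged 26 ± 14.8 and 10.2 ± 2.82 FPKM in CES1KD cells and 4.51 ± 1.77 and 1.16 ± 0.213 FPKM in WT cells. The 5 lower ones were CCL1, CCL2, CCL5, CCL7 and CCL8. CCL1, the ligand of CCR8, had 0.547, 0.308, 0.879 and 0.89 FPKM in CES1KD libraries, against 8.73, 8.87, 7.23 and 9.73 FPKM in WT libraries (log2 difference -2.55, SE 0.14), and CCL7, a ligand of CCR2, had 0.501, 0.352, 0.418 and 0.407 FPKM in CES1KD libraries, against 5.92, 4.31, 4.65 and 8.17 FPKM in WT libraries (log2 difference -2.22, SE 0.16). CCL2, another ligand of CCR2, averaged 2.29 ± 0.554 FPKM in CES1KD cells and 8.51 ± 1.41 FPKM in WT cells. CCL5 averaged 714 ± 165 FPKM in CES1KD cells and 1154 ± 84 FPKM in WT cells. CCL2, CCL3, CCL4 and CCL5 were named after their values were seen.

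Granule proteases of myeloid progenitors had the lowest list median. Of 13 progenitor and granule genes tested, 11 were lower and 1 higher, with a median of -2.23 (the same counts without library 2). PRTN3 (proteinase 3), AZU1 (azurocidin) and ELANE (neutrophil elastase), neighbours on chromosome 19, and CTSG (cathepsin G), on chromosome 14, were all lower. PRTN3 had 3.46, 1.8, 2.48 and 3.32 FPKM in CES1KD libraries, against 68, 61.8, 59.4 and 77.7 FPKM in WT libraries (log2 difference -4.19, SE 0.15). AZU1 had 7.25, 3.92, 6.85 and 6.73 FPKM in CES1KD libraries, against 88.6, 83, 77.2 and 89.6 FPKM in WT libraries (log2 difference -3.60, SE 0.16). ELANE had 0.946, 0.769, 1.83 and 1.25 FPKM in CES1KD libraries, against 27.8, 20.2, 27.5 and 30.7 FPKM in WT libraries (log2 difference -3.65, SE 0.17). These 3 genes were separated in every library. CTSG had 0.603, 0.221, 0.787 and 0.383 FPKM in CES1KD libraries, against 17.2, 17.4, 19.4 and 20.1 FPKM in WT libraries (log2 difference -3.72, SE 0.12). By means these 4 genes were 24.1, 13.7, 22.1 and 37.2 times as high in WT cells. BPI, which kills Gram-negative bacteria, fell by 2.23 on the log2 scale, and MYB, a transcription factor of progenitors, by 2.76. SRGN (serglycin), the proteoglycan that packs granule contents, had 290.2, 326, 308 and 305 FPKM in CES1KD libraries, against 681, 794, 724 and 798 FPKM in WT libraries (log2 difference -1.28, SE 0.08). GFI1, a transcriptional repressor, was the member that was higher (37.8 FPKM in CES1KD cells and 26.5 FPKM in WT cells), named after its values were seen.

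Most markers of the labelled cell type were present, and some were close to 0. Macrophage genes such as SPP1, CSF1R and SPI1 were abundant in both groups, and CSF1R averaged 301 ± 28.5 FPKM in CES1KD cells and 217 ± 9.38 FPKM in WT cells, named after its values were seen. Of 22 macrophage markers tested 6 were higher and 4 lower (10 and 4 without library 2), with a summed level of 4201 to 5288 FPKM in CES1KD libraries and 4757 to 5117 FPKM in WT libraries. Below the filter were 5 of the 27 markers. CD68 was listed at no more than 0.0802 FPKM in CES1KD cells and 0.11 FPKM in WT cells, whose reading is uncertain because other genes overlap it. ADGRE1 reached 0.0656 FPKM in CES1KD cells and 0.108 FPKM in WT cells, and LYVE1 was at 0 in all 8 libraries. CHIT1 and VSIG4 reached 0.53 and 1.25 FPKM in CES1KD cells and 1.02 and 0.685 FPKM in WT cells. CD9, a tetraspanin and the protein-coding gene with the largest fall, had 0.337, 0.277, 0.365 and 0.267 FPKM in CES1KD libraries, against 26.6, 30, 27.6 and 30.1 FPKM in WT libraries (log2 difference -4.49, SE 0.07). GPNMB, a glycoprotein of lipid-laden macrophages, averaged 15.8 ± 1.37 FPKM in CES1KD cells and 58.4 ± 4.26 FPKM in WT cells. Of 7 monocyte markers tested 5 were lower and 0 higher (6 and 1 without library 2), with sums of 25.7 to 27.8 FPKM in CES1KD libraries and 65.7 to 73.5 FPKM in WT libraries. CCR2, the receptor of CCL2, had 0.183, 0.342, 0.15 and 0.0784 FPKM in CES1KD libraries, against 4.23, 4.32, 4.84 and 5.1 FPKM in WT libraries (log2 difference -2.24, SE 0.09), and CX3CR1, the fractalkine receptor, averaged 10.2 ± 1.07 FPKM in CES1KD cells and 38.1 ± 3.02 FPKM in WT cells. In bulk RNA, fewer cells of a type and less RNA per cell cannot be told apart.

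Epithelial and erythroid markers were close to 0. Epithelial markers summed to at most 0.1 FPKM in CES1KD libraries and 0.131 FPKM in WT libraries, and erythroid markers to at most 0.0735 FPKM in CES1KD libraries and 0.352 FPKM in WT libraries, with EPCAM and HBB at 0 in all 8. Of 8 fibroblast markers only PDGFRA passed the filter, and it was lower, with sums of 2.34 to 2.75 FPKM in CES1KD libraries and 2.29 to 2.65 FPKM in WT libraries. PDGFRB, another of them, reached 1 FPKM in 3 libraries and so was not tested, with 1.26, 0.971, 1.08 and 1.42 FPKM in CES1KD libraries, against 0.126, 0.192, 0.156 and 0.156 FPKM in WT libraries. Of 14 lymphocyte markers 5 were tested (1 higher and 3 lower, 2 and 3 without library 2), with CD3D, CD3E, CD3G, CD2 and MS4A1 at 0 in all 8 and sums of 99.6 to 130.1 FPKM in CES1KD libraries and 124.8 to 137.4 FPKM in WT libraries. Dendritic cell markers summed to 22.6 to 27.6 FPKM in CES1KD libraries and 109.6 to 125.9 FPKM in WT libraries, in WT libraries mostly FCER1A, and 7 of 8 tested were lower, also without library 2. Of these, FCER1A, CD1A, CD1B, CD1C and CD1E are on the IL-4 list as well, so the counts of both lists overlap, and these 5 lie in a raised window of chromosome 1. Below the filter, LAMP3 had 1.06, 0.876, 0.892 and 1.04 FPKM in CES1KD libraries, against 0.0472, 0.0143, 0.035 and 0.139 FPKM in WT libraries, and CCR7 reached 0.351 FPKM in CES1KD libraries and 0.0355 FPKM in WT libraries. Mast cell and basophil markers summed to 2.03 to 2.8 FPKM in CES1KD libraries and 13.5 to 17.1 FPKM in WT libraries. There TPSB2, a tryptase, and GATA2 were lower, also without library 2, and CPA3 was at 0 in all 8. The part of these markers in other results was not tested.

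**Figure D5:**
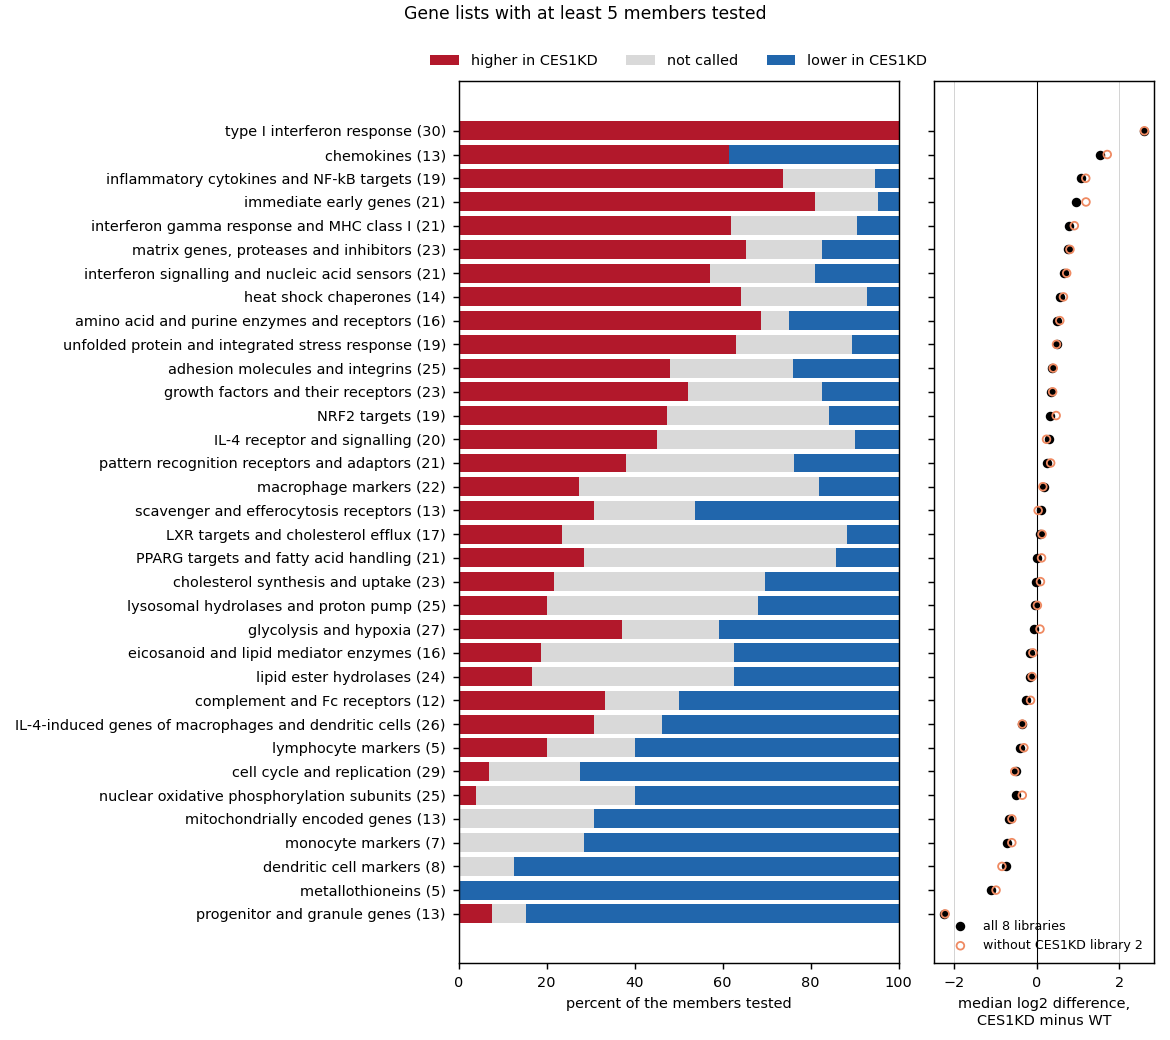
For each gene list with at least 5 members tested (number in parentheses), the percentage of the tested members called higher in CES1KD cells (red), not called (grey) and called lower (blue), and at right the median log2 difference, CES1KD minus WT, with all 8 libraries (black) and without CES1KD library 2 (open). Lists are ordered by median, with the type I interferon response at 2.59 on top and progenitor and granule genes at -2.23 at the bottom; over all 11740 genes 21.5% were higher and 22.7% lower.

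Matrix proteases and matrix proteins were mostly higher. Of 23 tested, 15 were higher and 4 lower, with a median of 0.76 (16 and 5 without library 2). MMP9, a gelatinase, had 515, 321, 515 and 525 FPKM in CES1KD libraries, against 39.6, 35.3, 40.2 and 43.3 FPKM in WT libraries (log2 difference 3.51, SE 0.16), so that library 2 was the lowest of the CES1KD libraries and still above all WT ones. MMP7 (matrilysin) had 159, 145, 147 and 168 FPKM in CES1KD libraries, against 40.9, 46.3, 40.1 and 45.7 FPKM in WT libraries (log2 difference 1.82, SE 0.08) and MMP19 30.7, 20.4, 30.1 and 29.7 FPKM in CES1KD libraries, against 3.77, 3.68, 3.55 and 3.42 FPKM in WT libraries (log2 difference 2.62, SE 0.13). MMP7 lies in the raised window of chromosome 11. COL6A2, a chain of collagen VI, averaged 69.2 ± 8.62 FPKM in CES1KD cells and 13.2 ± 1.09 FPKM in WT cells, and TIMP3, an inhibitor of metalloproteinases, 98.4 ± 3.75 FPKM in CES1KD cells and 43.5 ± 1.02 FPKM in WT cells. Of 25 adhesion molecules tested 12 were higher and 6 lower (14 and 6 without library 2). VCAM1, a ligand of leukocyte integrins, averaged 1.72 ± 0.297 FPKM in CES1KD cells and 14 ± 0.998 FPKM in WT cells, and the integrin chains ITGB3 and ITGB7 were higher by 1.47 and 1.40 on the log2 scale. Of 23 growth factor genes 12 were higher and 4 lower (14 and 5 without library 2), among them AREG and HBEGF, ligands of the EGF receptor, with log2 differences of 1.80 and 1.39, and OSMR, the oncostatin M receptor, with 2.35. OSMR lies in a raised and HBEGF in a lowered window of chromosome 5.

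Lipid gene lists had medians close to that of all genes. Of 24 other lipid ester hydrolases tested, 9 were lower and 4 higher (median -0.15; 10 lower and 7 higher without library 2). CES3, another carboxylesterase encoded on chromosome 16, had 0.0219, 0, 0.073 and 0.107 FPKM in CES1KD libraries, against 1.67, 1.46, 1.57 and 1.52 FPKM in WT libraries (log2 difference -1.28, SE 0.08). PLA2G4A, the phospholipase that frees arachidonic acid, averaged 25.7 ± 1.28 FPKM in CES1KD cells and 58.9 ± 4.06 FPKM in WT cells, and LPL, the lipoprotein lipase, 1124 ± 137 FPKM in CES1KD cells and 669 ± 45.1 FPKM in WT cells. LPL lies in a raised window of chromosome 8. NCEH1 and LIPA, hydrolases of cholesteryl esters, fell by 0.55 and 0.52 on the log2 scale, and were named after their values were seen. Cholesterol synthesis and uptake had 5 of 23 tested higher and 7 lower (7 and 6 without library 2), at a median of -0.02 that was 0.03 under equal-total scaling. SQLE, the squalene epoxidase of cholesterol synthesis, differed by 0.73.

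Among 17 LXR targets and genes of cholesterol efflux tested, 4 were higher and 2 lower (7 and 4 without library 2). ABCA1, which exports cholesterol, had 4.94, 7.29, 3.94 and 4.75 FPKM in CES1KD libraries, against 1.12, 1.15, 1.34 and 1.1 FPKM in WT libraries (log2 difference 1.49, SE 0.15), and PLTP, the phospholipid transfer protein, 3.64, 1.96, 2.93 and 4.49 FPKM in CES1KD libraries, against 9.41, 7.86, 8.23 and 9.74 FPKM in WT libraries (log2 difference -1.24, SE 0.17). Of 21 PPARG targets and fatty acid genes, 6 were higher and 3 lower (7 and 3 without library 2). PLIN2, the coat protein of lipid droplets, had 71.9, 75.3, 76.1 and 71.7 FPKM in CES1KD libraries, against 33, 39.4, 34.7 and 37.1 FPKM in WT libraries (log2 difference 1.02, SE 0.07), and DGAT2, which makes triacylglycerol, averaged 6.9 ± 0.689 FPKM in CES1KD cells and 2.53 ± 0.165 FPKM in WT cells. FABP4 and FABP5, fatty acid carriers encoded close together in a raised window of chromosome 8, differed in opposite directions, by -0.75 and 0.73. Of 16 eicosanoid genes tested 6 were lower and 3 higher (7 and 3 without library 2). PTGS2, the inducible cyclooxygenase, had 0.512, 0.427, 0.775 and 0.644 FPKM in CES1KD libraries, against 4.66, 5.06, 4.98 and 4.37 FPKM in WT libraries (log2 difference -1.86, SE 0.09), and the prostaglandin E2 receptors PTGER2 and PTGER4 were higher by 1.07 and 1.10 on the log2 scale.

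Of 12 complement and Fc receptor genes tested, 6 were lower and 4 higher (6 and 6 without library 2). C3, the central complement protein, and C5AR1, the receptor of C5a, were higher: C3 had 28.3, 34.5, 30.2 and 31.6 FPKM in CES1KD libraries, against 5.03, 4.76, 5.38 and 5.32 FPKM in WT libraries (log2 difference 2.39, SE 0.08), and C5AR1 82.8, 95.6, 95.7 and 86.7 FPKM in CES1KD libraries, against 13.8, 16.8, 15.6 and 14.5 FPKM in WT libraries (log2 difference 2.50, SE 0.08). CFD (adipsin), a protease of the alternative pathway, was lower, with 18.2, 9.65, 18.3 and 17 FPKM in CES1KD libraries, against 112, 98.3, 101 and 109 FPKM in WT libraries (log2 difference -2.70, SE 0.18). CD163, the haemoglobin scavenger receptor, averaged 5.41 ± 0.459 FPKM in CES1KD cells and 1.85 ± 0.284 FPKM in WT cells, among 13 scavenger receptors of which 4 were higher and 6 lower (5 and 6 without library 2). Of 21 pattern recognition genes tested, 8 were higher and 5 lower (11 and 6 without library 2), with MYD88, the adaptor of Toll-like receptors, at 27.9 FPKM in CES1KD cells and 10.4 FPKM in WT cells.

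Stress and growth genes shifted in groups. Of 21 immediate early genes tested 17 were higher and 1 lower, with a median of 0.96 (19 and 1 without library 2). NR4A3, an orphan nuclear receptor, had 25.8, 26.9, 28.6 and 25.2 FPKM in CES1KD libraries, against 2.3, 2.89, 2.85 and 2.91 FPKM in WT libraries (log2 difference 2.89, SE 0.08), and KLF6 averaged 41.5 ± 2.52 FPKM in CES1KD cells and 9.94 ± 0.101 FPKM in WT cells. Of 14 heat shock chaperones 9 were higher and 1 lower (median 0.56; 10 and 2 without library 2). HSPA1B, an inducible HSP70, had 49.1, 33.2, 47 and 48.1 FPKM in CES1KD libraries, against 5.36, 4.49, 5.78 and 6.08 FPKM in WT libraries (log2 difference 2.81, SE 0.14); it and HSPA1A are near-identical copies that can share reads. Of 19 genes of the unfolded protein and integrated stress response 12 were higher and 2 lower (15 and 2 without library 2), with SESN2 and DDIT3 at 2.01 and 1.60. Of 19 NRF2 targets 9 were higher and 3 lower (12 and 3 without library 2), led by SLC7A11, the cystine transporter, with 6.89, 8.5, 7.31 and 6.83 FPKM in CES1KD libraries, against 0.654, 0.516, 0.61 and 0.463 FPKM in WT libraries (log2 difference 2.42, SE 0.09). The 5 metallothioneins tested, of 9 on the list, were all lower, also without library 2. MT1G had 0.096, 0, 0.107 and 0 FPKM in CES1KD libraries, against 2, 2.99, 2.08 and 2.66 FPKM in WT libraries (log2 difference -1.70, SE 0.11), and MT2A averaged 25.8 ± 3.75 FPKM in CES1KD cells and 45.6 ± 8.85 FPKM in WT cells. NT5E (CD73), the enzyme that makes adenosine, had 12.9, 18.4, 16.5 and 14.4 FPKM in CES1KD libraries, against 1.38, 1.75, 1.58 and 1.78 FPKM in WT libraries (log2 difference 2.65, SE 0.11), the leading member of the amino acid and purine list (11 of 16 higher and 4 lower, the same without library 2).

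Genes of proliferation and respiration were mostly lower. Of 29 cell cycle genes tested, 21 were lower and 2 higher, with a median of -0.49 (23 and 3 without library 2). CCNB1 (cyclin B1), in a lowered window of chromosome 5, had 7.92, 10.8, 8.2 and 7.87 FPKM in CES1KD libraries, against 20.9, 22.7, 20.4 and 22.7 FPKM in WT libraries (log2 difference -1.24, SE 0.10), and PCNA, the sliding clamp of replication, 16, 17.2, 15.9 and 16.7 FPKM in CES1KD libraries, against 27.4, 29.4, 26.5 and 28.3 FPKM in WT libraries (log2 difference -0.73, SE 0.06). The 2 higher members were CDKN1A (p21), an inhibitor of the cell cycle, and CCND1 (cyclin D1), at 0.66 and 0.69, named after their values were seen. Of 25 nuclear subunits of oxidative phosphorylation 15 were lower and 1 higher (median -0.49; 16 lower, 1 higher and a median of -0.35 without library 2), and of 13 mitochondrially encoded genes 9 were lower and 0 higher (median -0.67; 10 and 0 without library 2). MT-CO3, a cytochrome oxidase subunit, had 1159, 1067, 1403 and 1367 FPKM in CES1KD libraries, against 2145, 1903, 2779 and 2260.0 FPKM in WT libraries (log2 difference -0.86, SE 0.14). Of 27 genes of glycolysis and hypoxia 10 were higher and 11 lower, with a median of -0.06 (11 and 11 without library 2, median 0.08), and of 25 lysosomal genes 5 were higher and 8 lower (8 and 9 without library 2). EPAS1 (HIF-2 alpha) averaged 14.2 ± 0.623 FPKM in CES1KD cells and 6.35 ± 0.147 FPKM in WT cells, and SLC2A3, a glucose transporter, 1.62 ± 0.44 FPKM in CES1KD cells and 5.18 ± 0.528 FPKM in WT cells.

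By the annotation in the deposited table, 838 transcription factors were tested, of which 279 were higher and 97 lower in CES1KD cells, with a median of 0.16 against -0.01 over all genes (369 and 135 without library 2, median 0.16). The C2H2 zinc fingers made up 366 of them, 128 higher and 24 lower (165 and 42 without library 2). Of the 41 homeobox factors, 7 were higher and 14 lower, but 13 higher and 14 lower without library 2. Over all genes 21.5% were higher and 22.7% lower, and 28.7% and 29.7% without library 2. The factor with the largest rise was POU4F2, a POU factor known from retinal ganglion cells, which had 8.78, 9.69, 9.08 and 10.2 FPKM in CES1KD libraries, against 0.248, 0.139, 0.255 and 0.299 FPKM in WT libraries (log2 difference 3.08, SE 0.08). At the other end, MYB had 1.48, 1.82, 1.22 and 1.67 FPKM in CES1KD libraries, against 15.1, 17.8, 17.2 and 15 FPKM in WT libraries (log2 difference -2.76, SE 0.10) and GATA2 averaged 1.21 ± 0.188 FPKM in CES1KD cells and 7.84 ± 0.827 FPKM in WT cells. NFE2, a factor of the megakaryocyte and erythroid lineages, fell by 1.80 and the homeobox genes DLX3, DLX4 and HOXA13 by 1.66, 1.55 and 1.46 on the log2 scale. The factors were ranked after the values were seen.

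Some genes were near-silent in 1 line and expressed in the other. Taking a mean under 0.1 FPKM in 1 group and of at least 2 FPKM in the other, 10 genes were near-silent in CES1KD cells: CES1 itself, PCDHGA12, RHEX, AQP1, LINC01088, DEFB1, MT1G, MS4A3, PITPNM3 and VASN. PCDHGA12, a gamma protocadherin, had 0, 0.0884, 0.0249 and 0.0608 FPKM in CES1KD libraries, against 10.3, 10.2, 10.7 and 10.7 FPKM in WT libraries (log2 difference -3.46, SE 0.07), from 15 fragments in CES1KD and 3751 in WT libraries. MS4A3, a marker of granulocyte and monocyte progenitors, gave 1 fragment in CES1KD and 360 in WT libraries. AQP1, a water channel, gave 10 fragments in CES1KD and 742 in WT libraries. In the other direction were 5 genes, AL132640.3, AC091849.1, ANKRD1, AC060764.1 and CDC42BPA, of which ANKRD1, a muscle ankyrin repeat protein, gave 767 fragments in CES1KD and 13 in WT libraries. This choice was made after the values were seen and has no test of its own.

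The largest difference of all was in a noncoding gene. The lincRNA AC079466.1 (chromosome 19, 28606688 to 28615229, plus strand, in coordinates that match GENCODE 29 on GRCh38) had 107, 141, 119 and 94.4 FPKM in CES1KD libraries, against 0.931, 1.06, 1.05 and 0.581 FPKM in WT libraries. Its mean was 127 times as high in CES1KD cells, a log2 difference of 5.92 (SE 0.14) with adjusted p = 2.89e-08. AL713998.1, a lincRNA on chromosome 6, went the other way, with 80, 74.4, 79.2 and 78.2 FPKM in CES1KD libraries, against 309, 298, 294 and 317 FPKM in WT libraries (log2 difference -1.95, SE 0.06). Of 274 lincRNAs tested 66 were higher and 63 lower (47.1% called), and of 298 antisense genes 51 were higher and 62 lower (37.9% called). Over all genes 44.2% were called. Of 343 processed pseudogenes 25 were higher and 103 lower (37.3% called), and of 41 miRNA genes 0 were higher and 2 lower (4.88% called). These biotypes were counted with all 8 libraries only. Whether the counting used strand is not given, so reads of an antisense gene and its partner cannot be told apart.

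Differences also followed position. Of 226 windows of 10 Mb with at least 20 tested genes, 22 had a median log2 difference of at least 0.3 in size, and they held 884 of the tested genes. On chromosome 5 the pattern split: 3 windows between 0 and 50 Mb were raised (median 0.55 over 81 genes, 54 higher and 5 lower), and 10 windows between 50 and 180 Mb were lowered (median -0.49 over 379 genes, 25 higher and 250 lower). In the lowered windows the median gene was 0.51, 0.44, 0.52 and 0.48 below the WT mean in the 4 CES1KD libraries, so each library showed it, and WT libraries lay between -0.05 and 0.04. Chromosome 8 had 5 raised windows between 10 and 90 Mb (median 0.42, 157 genes), and chromosome 1 had 2 between 140 and 160 Mb (median 0.55, 194 genes). Single raised windows lay on chromosome 6 at 20 to 30 Mb (0.31) and on chromosome 11 at 100 to 110 Mb (0.35), and the median on chromosome 11 was 0.21 without library 2. FCER1A, PCDHGA12, PDLIM4 and TMEM173 are named genes of these windows; FCER1A was lower in a raised window. Outside the windows 4574 of 10856 genes were called, 2190 higher and 2384 lower. The windows were chosen by these values, so they are a description with no test, and no measure of the DNA was used here.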

How the data were processed

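The authors deposited FPKM for 58735 genes in 24 libraries, of which 8 enter here. Per the submitters' processing notes the tools were CASAVA, HISAT2 and DESeq (versions and roles not given in the sources used here), and the RNA integrity number was above 4 per the labels. Gene IDs and coordinates all matched GENCODE 29. FPKM times gene length gave whole multiples of 1 step per library (100% of genes, tolerance 1e-06), which recovered 15529869 to 26671681 fragments per library and showed that the deposited FPKM had been scaled by 1.01 to 1.07 of that total.

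Genes that reached 1 FPKM in 4 or more of 8 libraries were fitted with limma 3.58.1 (lmFit, eBayes with trend) in R 4.3.3 on log2(FPKM + 1), which understates the change of low genes, with two-sided tests and Benjamini-Hochberg adjustment over 11740 genes; genes at adjusted p under 0.05 were called. The permutation test used SciPy 1.17.1. The fit was run on simulated data with independent noise, few changed genes and no outlying library. These data differ in those respects, so that run does not test the calls made here. No 2 libraries agreed within sampling noise. The 2 groups share replicate numbers. The labels do not say if these pair the samples, and the main fit did not take them as pairs.

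Named genes were CES1, the 15 highest and 15 lowest protein-coding genes called with no overlap and a mean of at least 2 FPKM, up to 5 members of each of 39 lists by p, 5 genes each way of other biotypes, and the 8 most abundant called 2-fold. The text gives only part of the genes this rule took, and some results are not reported here. The members, lists and rule were chosen with earlier results of these data known. Alternatives were another pseudocount, filters, scalings, all 24 libraries, no trend, a replicate block, voom on recovered fragments, leaving out each library, array weights and the removal of shifted windows.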

Additional observations from a re-analysis of the deposited data

Results flagged for a closer look

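Among the 396 groups of 4 libraries given by 198 named genes, 30 (7.58%) had 1 library far from the other 3 by Dixon's criterion at 95%, where chance flags about 1 in 20 groups. Of these, 19 were CES1KD library 2, the library that stood apart by GC content. The criterion sets the gap against the range of the 4 values. A small gap is therefore flagged where the other 3 agree closely, as in TNFAIP3, GCLC and TRAF1. Values are FPKM, with the range of the other 3 libraries of the group. CES1KD library 2 was flagged below the other CES1KD libraries in MMP9 (321, others 515 to 525), AZU1 (3.92, others 6.73 to 7.25), TAP1 (50.1, others 68 to 70.8), TNFAIP3 (46.2, others 47.6 to 47.9), PTGER4 (52.9, others 58.9 to 59.3) and CFD (9.65, others 17 to 18.3). The same held for MMP19 (20.4, others 29.7 to 30.7), HSPA1B (33.2, others 47 to 49.1), TRIB3 (17.5, others 20.5 to 21), DDIT3 (15.9, others 25.6 to 27) and NKG7 (1.95, others 5.1 to 5.64). Library 2 was flagged above the other CES1KD libraries in AOC1 (0.334, others 0.153 to 0.169), LPL (1328, others 1036 to 1073), STARD4 (17.2, others 12.1 to 12.5), INSIG1 (49.9, others 37.3 to 39.5), GCLC (14.9, others 13.8 to 13.9) and HSPH1 (183, others 131 to 139). The same held for CCNB1 (10.8, others 7.87 to 8.2) and CYP1B1 (32.4, others 23.3 to 23.9). Another CES1KD library stood off in IFI44 (29, others 36.3 to 37.5, library 4), IFI16 (35.1, others 40.7 to 41.6, library 4) and MT1F (0.827, others 1.03 to 1.05, library 3). A WT library stood off in IFIT1 (0.886, others 1.46 to 1.47, library 1), AC091849.1 (0.368, others 0, library 3), AL596442.1 (5.99, others 11 to 11.2, library 2) and TRAF1 (5.27, others 5.15 to 5.17, library 1), and in MFGE8 (1.5, others 1.18 to 1.23, library 4), SLC2A3 (4.4, others 5.38 to 5.54, library 1), TK1 (25.9, others 22.5 to 23, library 1) and NR4A3 (2.3, others 2.85 to 2.91, library 1).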

How the results depend on the processing

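The number of genes called stayed within 1.5 times of 5188 under 10 alternatives other than the stricter filter: 5162 with a pseudocount of 0.1, 5544 with no filter, 5203 and 4980 with the scalings to the median of ratios and to equal totals, 6502 with all 24 libraries, 5178 without the trend, 5371 with voom on recovered fragments, 5968 with the replicate block, 7329 with array quality weights and 4523 without the shifted windows. The last pair was chosen after seeing the data. With a mean FPKM of at least 5, 6748 genes were tested and 3125 called, 1558 higher and 1567 lower, and 513 at least 2-fold, because fewer genes were tested. The 2-fold count was 1406 with the pseudocount of 0.1 and 1459 with voom, since adding 1 to FPKM shrinks the differences of low genes. Leaving out 1 library gave 4353 to 6849 genes, with 2148 to 3366 higher and 2205 to 3483 lower, and 889 to 935 at least 2-fold. Only the removal of CES1KD library 2 raised the number of genes called: without any other library it was at most 4663. Array weights gave that library 0.09 and the others 0.705 to 2.38. CES1 differed by -2.75 to -2.84 without 1 library, by -5.47 with the pseudocount of 0.1 and by -7.29 with voom, and passed in each of these; with a mean FPKM of at least 5 it was not tested, its mean being lower.

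The share of calls that were higher was 48.6%, 54.1% with equal totals and 46.5% with voom. No named gene reversed. Of the gene lists, the medians of cholesterol synthesis and lysosomal genes (both below 0) turned positive with equal totals (0.03 and 0.02), and that of PPARG targets (0.01) negative with voom (-0.02). Without CES1KD library 2 the medians of cholesterol synthesis (-0.02), glycolysis and hypoxia (-0.06) and lysosomal genes (-0.03) turned positive (0.09, 0.08 and 0.02). CD74 (0.27), CD33 (-0.38) and TRAC (0.34) lost their call when single libraries other than CES1KD library 2 were left out (adjusted p up to 0.0804, 0.0999 and 0.0587), and CD74 and CD33 with no filter. NKG7 (0.58, not called) passed without CES1KD library 2 (0.86), with array weights (0.87) and with all 24 libraries.

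Deviations of same-numbered samples correlated at 0.458, 0.507, -0.0908 and 0.256 for numbers 1 to 4. CES1KD libraries 1 and 2 correlated best with the WT library of their own number, and libraries 3 and 4 with WT library 1. The numbers were not taken as pairs in the main fit, and a batch shared by number was not tested. With the replicate block 892 genes were at least 2-fold and the CES1 difference was -2.80 with adjusted p = 1.08e-05. Depth limits genes near 1 FPKM most: 628 genes reached the filter in exactly 4 libraries, with a median of 1.09 FPKM, and 439 in exactly 3 fell outside, with a median of 0.89.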
